A study of Mus musculus with 54 samples.

Results

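Clone 4T1-L is 1 of 23 lines grown from single sorted cells of 4T1, a mouse mammary carcinoma line that spreads from the mammary gland to distant organs. It was measured by RNA-seq in 2 of the study's 54 libraries, lettered A and B, and was set against the 44 libraries of the other 22 clones, 2 libraries each. The members were chosen by the clone's label alone, with no measured value. The labels call clone L non-intravasating, as they do 20 of the other clones, and call clones E and T intravasating, a call that rests on how well each clone entered the vasculature when all were tested as a pool. All clones grew in the same high-glucose medium with serum, and the labels name no engineered allele and no treatment for any of them. The remaining 8 libraries came from 2 orthotopic tumors and 2 lung metastases and were used only to look genes up. Clone L is a single clone, so every result describes this line, and nothing in the labels says whether its 2 libraries came from separate cultures. A p-value that rests on libraries therefore measures the spread between paired libraries, which may be technical.

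The authors deposited variance-stabilised log2 values, and the normalised read counts printed here were obtained by undoing that transformation. Libraries A and B of clone L held 15293704 and 14453359 reads, against 8849257 to 31609870 in the libraries of the other clones, and 1 read was worth 1.13 and 1.22 normalised counts. Across genes the pair correlated at 0.991, against 0.990 to 0.997 within the other clones. Library A gave relatively more reads to long transcripts than library B: across 10283 genes, the Spearman correlation of transcript length with A minus B was 0.556, against −0.409 to 0.289 within the other clones. With the mean of both libraries, the correlation of length with clone L minus the others was 0.137. All 7 markers of carcinoma epithelium were detected, and they summed to 63772 and 74854 normalised counts in clone L, against 19783 to 90975 in the other clones. The macrophage markers summed to 164 and 146 (65.2 to 558 in the other clones), with Emr1, Cd163, C1qa and C1qb at 0 reads in both libraries.

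Carcinoma cells can hold an epithelial state, in which E-cadherin, tight junctions and desmosomes join neighbouring cells, or shift toward a mesenchymal state, in which Zeb, Snail and Twist factors repress junction genes and the cells make vimentin and matrix proteins. The shift, called epithelial-mesenchymal transition, is graded, and cell lines often hold a mixture of states. A clone grown from 1 cell samples 1 point of that mixture. Clones of 4T1 can also differ in what they secrete, in lipid synthesis and in signalling.

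Clone L lay at the epithelial end of the clones. Its junction genes, cholesterol and fatty acid synthesis genes, Ctgf and Cyr61, and neutrophil chemokines lay mostly high, while Ptgs1 and Ptges, most of the osteopontin list, Vim and S100a4, the protease inhibitors Serpine2 and Slpi, and most of the called BMP and Id genes lay low. Some of these traits were held as strongly by other clones. List means are given here minus the mean of the other 22 clones, on the log2 scale. Cholesterol synthesis was at 0.94 in clone L, 0.91 in P and 1.16 in U. Junction genes were at 1.34 in clone L and 1.39 in A. Neutrophil chemokines were at 1.10 in clone L, 1.12 in C and 2.45 in G. For the fatty acid, osteopontin and BMP lists no other clone lay as far in the same direction. How far the whole profile differed depended on what was asked. With 1 value per clone and the spread taken from the other 22, so that clone L was assumed to vary like them, limma called 1 of 13637 tested genes at an adjusted p of 0.05 (1 higher, 0.00733%, and 0 lower, 0%). At an unadjusted p under 0.05 this test had 309 higher and 211 lower genes, 3.81% of all. Among the other clones the same test called between 0 and 730 genes. An exact permutation over 23 clones cannot give a p below 0.0435 for a single clone.

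Against the mean of the other 22 clones, with the spread taken between the paired libraries of each clone, limma called 2950 genes higher (21.6%) and 3330 lower (24.4%) in clone L, and 289 and 313 of these differed by at least 1 on the log2 scale. This library test asks whether clone L lies off the average, not whether it lies outside the range of the clones. By the count of calls clone L was 7th of the 23. Both clone L libraries lay above all 44 others for 111 genes (0.814%) and below all 44 for 111 genes (0.814%). The other clones had 6 to 961 such genes above (median 174) and 0 to 685 below (median 146). By these counts clone L was 16th and 14th of the 23. Its clone mean was the highest of 23 for 515 genes (3.78%) and the lowest for 493 (3.62%). The medians over the other clones were 524 and 551 genes. Its genes are therefore described by their place among the clones as well as by the library test.

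In contrasts between single clones, P differed least from clone L, at 2168 genes on the library test (limma), followed by Q at 3238, I at 4044, J at 4225, H at 4245 and A at 4284. The median over the 22 clones was 5628 genes, and S differed most, at 8015. Of the 111 genes above all 44 libraries, 76 were also higher in clone L against clone P alone (8.72% of all genes), and of the 111 below, 66 were also lower (7.18% of all genes). Clone P is 1 of the clones that chose these genes, so nothing is read from those shares.

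**Figure D1:**
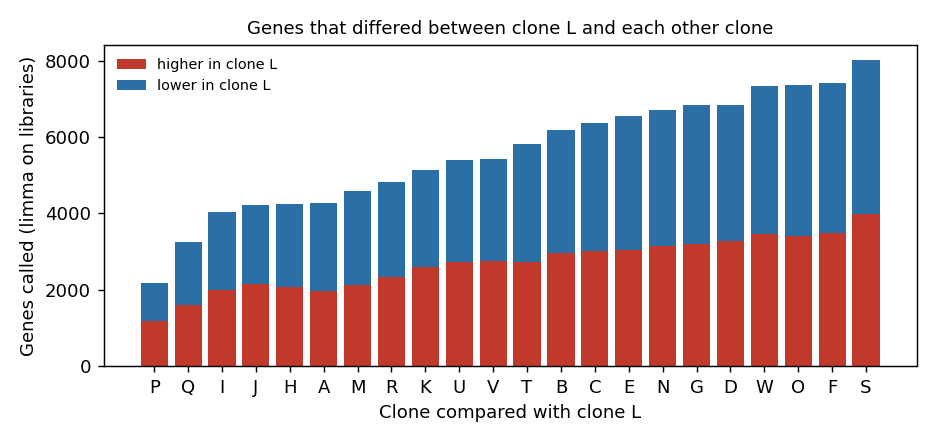
Number of genes called by limma on libraries (y axis) between clone L and each of the other 22 clones (x axis, ordered by the number), split into genes higher and lower in clone L. The bars run between 2168 genes for clone P and 8015 for clone S.

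The gene that stood farthest above the range was Nts (chr10:102481756-102490486, minus strand; coordinates here and later are from GENCODE M21 on mm10). It encodes neurotensin, a secreted peptide known as a gut hormone and neurotransmitter. Clone L had 142 and 184 normalised counts, against a median of 1.17 (0 to 37) in the other clones, where a clone counts as the mean of its 2 libraries and the brackets, here and later, hold the lowest and the highest clone. Both libraries of clone L lay above every other clone, the nearest being clone A. The difference was 2.41 ± 0.39 on the deposited log2 scale (SE, spread between clones; adjusted p = 0.0253, limma on clones), and clone P had 13.1 normalised counts. This was the only gene that passed that test, and the call was lost without library B of clone L, on the log2(count + 1) scale and against only the 20 other non-intravasating clones. The RefSeq start region of Nts is shown because it holds 1 match to TGANTCA, the letters that AP-1 factors bind, given in capitals; the window runs from 250 bases before to 50 after the gene start (GRCm38.p6, chr10:102490369-102490668, minus strand), and 7.81% of 32851 such windows hold a match on either strand.

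Nts: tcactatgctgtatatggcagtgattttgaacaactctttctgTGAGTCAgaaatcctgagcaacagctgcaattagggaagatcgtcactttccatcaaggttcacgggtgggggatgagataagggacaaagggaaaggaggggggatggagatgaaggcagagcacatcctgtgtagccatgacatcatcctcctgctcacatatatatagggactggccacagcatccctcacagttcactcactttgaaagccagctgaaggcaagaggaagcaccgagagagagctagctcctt

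Of the 111 genes above all other libraries, the 12 with the widest gap and at least 50 normalised counts were Nts, Plekhs1, Nup210, Ror1, D7Ertd715e, Fam3c, Gatm, Galnt7, Ly75, Pdzk1, Ldlrad3 and Canx. Plekhs1, a pleckstrin homology domain protein, had 371 and 326 normalised counts in clone L and a median of 15.7 (3.49 to 197) in the other clones. Nup210, a membrane glycoprotein of the nuclear pore, had 1584 and 1598 in clone L and a median of 379 (112 to 1072) in the others. Both genes were clear of the next clones, M and A. Ror1, a receptor tyrosine kinase that binds Wnt5a, had 167 and 180.0 normalised counts, against a median of 42.5 (4.46 to 108). Fam3c, a secreted protein known as interleukin-like EMT inducer, was abundant everywhere and still separate, with 9147 and 9958 in clone L and a median of 4562 (2316 to 6867) in the other clones.

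Gatm makes the precursor of creatine and was close to absent from most clones. Its 128 and 129 normalised counts in clone L compared with a median of 0.804 (0 to 86.8) in the others, and the highest of these was clone N. Clone P, from which fewest genes differed, had 0.657. Canx, the endoplasmic reticulum chaperone calnexin, had 26159 and 29399 in clone L and a median of 15972 (12826 to 20319) in the other clones, a narrow range that clone L exceeded by a small step. The remaining members were Galnt7, which adds sugars to mucin-type glycoproteins, the endocytic receptor Ly75 (DEC-205), the scaffold protein Pdzk1, the membrane protein Ldlrad3, and D7Ertd715e. Their differences on the log2 scale lay between 0.80 for Galnt7 and 1.64 for D7Ertd715e, and both clone L libraries were above all others in each.

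The 12 named genes below all other libraries were Lrp1, Pear1, Prkch, Ptgs1, Antxr1, St3gal1, Serpine2, Camk1d, Stc1, Rgl1, Gpr97 and Phyh. Lrp1 (chr10:127538161-127621148, minus strand) had the widest gap; it encodes a large endocytic receptor that takes up proteases bound to their inhibitors. Clone L had 318 and 244 normalised counts, against a median of 3104 (838 to 6753) in the other clones, and clone P was the lowest of these. The difference was −3.12 ± 0.17 on the log2 scale (SE, spread between libraries; adjusted p = 2.65e-16, limma on libraries). Against clone P alone it was −1.39 ± 0.24 (adjusted p = 6.27e-05, limma on libraries). Lrp1 was picked by its place below all other libraries, clone P's included, so nothing is read from that call.

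Camk1d, a calcium and calmodulin-dependent kinase, had 10.2 and 20.8 normalised counts in clone L and a median of 876 (46.9 to 1765) in the others. Antxr1, a collagen-binding receptor that also takes up anthrax toxin, had 71.5 and 78.4, against a median of 559 (133 to 1887). Clone A was the lowest of the other clones in both genes, and clone L lay below it with both libraries. St3gal1, which caps O-linked glycans with sialic acid, had 366 and 408 in clone L and a median of 2302 (607 to 5791) in the other clones. Stc1, the secreted glycoprotein stanniocalcin 1, had 27.2 and 24.5, against a median of 427 (54.6 to 2262). Prkch, protein kinase C eta, had 18.2 and 15.9 in clone L and a median of 189 (53.7 to 1554) in the others. In each of these genes clone L sat below the low end of a wide range. Of the other 4, Pear1, a receptor of platelets and endothelium, had 89.6 and 91.9 normalised counts in clone L and a median of 454 (202 to 1054) in the others. Phyh, which starts the peroxisomal breakdown of phytanic acid, had 141 and 162, against a median of 515 (213 to 855). Gpr97, an adhesion G protein-coupled receptor, and Rgl1, an exchange factor for Ral, differed by −2.72 and −1.12 on the log2 scale.

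None of the named genes other than Nts passed the test on clones (limma): the adjusted p was 0.14 for Gatm and 0.857 for the other 22. All 24 passed the library test, as did all 222 genes that lay outside the other libraries, and since these were picked by their place outside, that is a description.

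**Figure D2:**
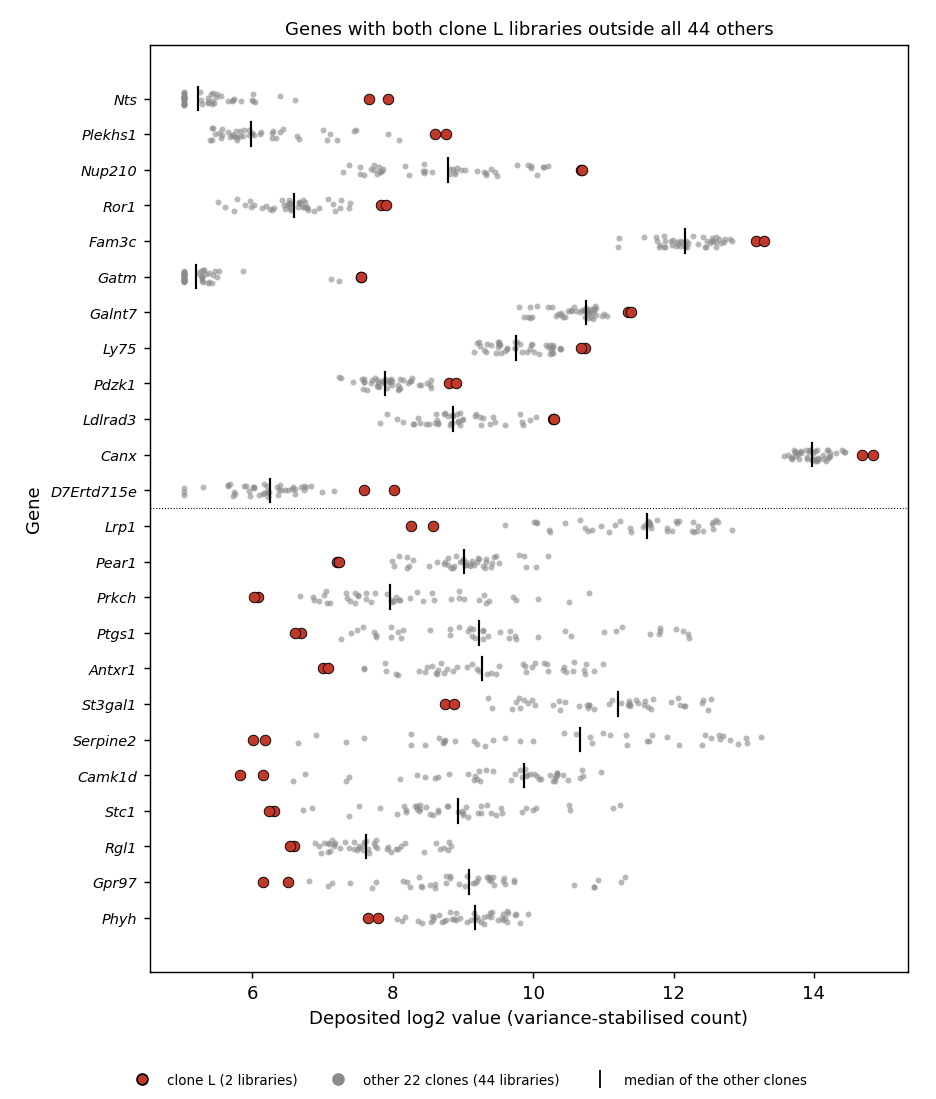
Deposited log2 values (x axis) of the 12 named genes above and the 12 below all other clone libraries, 1 row per gene, with the 2 libraries of clone L in red, the 44 libraries of the other clones in grey and a bar at the median of the other clones. The dotted line parts the 12 higher from the 12 lower genes, and in each row both red points lie beyond all grey points.

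Epithelial junction genes lay high nearly throughout. Of 26 tested members, 24 were higher in clone L on the library test, against 21.6% of all genes, and 0 were lower, against 24.4%. The median difference of the list was 1.19 on the log2 scale, against −0.01 over all tested genes, and the mean of the list was the 2nd highest of 23 clones, after clone A. Cdh1 (chr8:106603351-106670246, plus strand), which encodes E-cadherin, had 23446 and 24960 normalised counts in clone L and a median of 8648 (217 to 19829) in the other clones. Both clone L libraries were above all others, and clone O was the lowest of the other clones. The difference was 2.05 ± 0.11 (SE, adjusted p = 1.64e-16, limma on libraries).

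Among tight junction genes, Ocln (occludin) had 1553 and 1780 normalised counts, against a median of 396 (49.1 to 1348), and Marveld2 (tricellulin) had 2060 and 1963, against a median of 491 (122 to 1712). Cgn (cingulin), which ties tight junctions to actin, had 1885 and 1869, against a median of 452 (40.8 to 1502). In these 3 genes both clone L libraries exceeded all 44 others; clone M came next for Ocln and Marveld2, and clone A for Cgn. The claudins Cldn7, Cldn4 and Cldn3 were each 2nd highest: Cldn7 had 1626 and 3006 in clone L and a median of 72.5 (2.27 to 3599) in the others. Cldn4 had 1369 and 2016, against a median of 126 (2.42 to 3010). Tjp1 (ZO-1), the scaffold of the tight junction, was higher by a small step, 0.18 ± 0.08 on the log2 scale (SE, adjusted p = 0.0475, limma on libraries), and was not called without library A, at 0.05.

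Desmosomes were also high. Dsp (desmoplakin) had 7800 and 5591 normalised counts, against a median of 1712 (105 to 5714), and the desmosomal cadherin Dsg2 had 2480 and 2736, against a median of 807 (5.53 to 2554). Clone L had the highest mean of 23 in both, with 1 library inside the range of clone M for Dsp and of clone A for Dsg2. Epcam, the epithelial adhesion molecule, had 12797 and 15189, against a median of 2439 (151 to 16782), 2nd among the clones. Ppl and Evpl, which encode periplakin and envoplakin, were the 2 members not called, at −0.01 ± 0.11 and 0.23 ± 0.12 (SE).

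Start regions of Ocln, Marveld2 and Dsp are printed because each holds 1 match to CAGGTG, in capitals, the E-box letters that Zeb and Snail repressors bind. Windows and build are as above, at chr13:100552669-100552968, minus strand for Ocln, chr13:100616922-100617221, minus strand for Marveld2 and chr13:38151044-38151343, plus strand for Dsp. On either strand CAGGTG occurs in at least 1 window of 22.6% of 27025 genes, and in 10 of the 14 junction genes with a window in the table. A match is a description of the letters and does not show that a factor binds there.

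Ocln: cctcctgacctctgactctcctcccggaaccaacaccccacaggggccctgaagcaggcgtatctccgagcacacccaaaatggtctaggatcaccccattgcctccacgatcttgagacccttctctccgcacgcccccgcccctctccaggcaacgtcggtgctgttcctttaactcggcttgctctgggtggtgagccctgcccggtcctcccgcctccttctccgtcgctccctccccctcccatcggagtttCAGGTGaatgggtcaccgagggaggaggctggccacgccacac
Marveld2: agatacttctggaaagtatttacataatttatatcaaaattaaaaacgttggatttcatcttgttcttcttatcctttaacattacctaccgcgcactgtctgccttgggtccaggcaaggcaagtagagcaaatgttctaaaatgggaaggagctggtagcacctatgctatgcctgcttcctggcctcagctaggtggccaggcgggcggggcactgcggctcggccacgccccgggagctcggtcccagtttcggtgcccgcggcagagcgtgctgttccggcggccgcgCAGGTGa
Dsp: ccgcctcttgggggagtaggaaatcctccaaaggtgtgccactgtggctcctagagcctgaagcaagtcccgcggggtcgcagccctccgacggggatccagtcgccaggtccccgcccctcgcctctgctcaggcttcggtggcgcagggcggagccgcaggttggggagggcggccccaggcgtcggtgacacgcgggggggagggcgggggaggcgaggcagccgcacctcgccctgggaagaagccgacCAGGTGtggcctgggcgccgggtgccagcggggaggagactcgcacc

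Regulators of the epithelial state went mostly the same way. Of 17 tested members, 12 were higher on the library test (70.6%, against 21.6% of all genes). Another 3 were lower (17.6%, against 24.4%), and the median difference was 0.90. Esrp1 and Esrp2 direct epithelial splicing. Esrp1 had 4423 and 3617 normalised counts in clone L, against a median of 56.3 (2.8 to 4955), and Esrp2 had 613 and 667, against a median of 187 (45.7 to 492). Both Esrp2 libraries were above all others, while Esrp1 was 3rd among clones. The grainyhead factor Grhl3 had 69.2 and 58.8, against a median of 6.89 (0.48 to 50.5), and Grhl2 had 1742 and 1334, against a median of 878 (120.2 to 2131). Klf4, Klf5 and Rbm47 were the 3 lower members; Klf4, a zinc-finger factor of epithelia, had 112 and 131, against a median of 261 (93.9 to 461). Among keratins, 6 of 11 were higher (54.5%, against 21.6% of all genes) and 3 lower (27.3%, near the 24.4% of all genes). The basal keratin gene Krt14 had 2487 and 3029, against a median of 102 (2.35 to 3908), and the simple keratin gene Krt8 had 6297 and 7062, against a median of 9482 (3221 to 12880), at −0.38 ± 0.11 (SE, adjusted p = 0.00415, limma on libraries). Without library A of clone L, Krt8 and Klf5 were not called, at −0.30 and −0.18.

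The repressors of the epithelial state were mostly low but not extreme. Of 13 tested EMT factors, 8 were lower (61.5%, against 24.4% of all genes) and 2 higher (15.4%, against 21.6%) on the library test, with a median difference of −0.36. Without library A of clone L, 5 were lower (38.5%, against 17.4% of all genes). Zeb1 was near its detection limit, with 1 read in each clone L library (1.13 and 1.22 normalised counts), against a median of 8.99 (1.28 to 60.1). Zeb2 had 846 and 701, against a median of 2047 (521 to 3234), and Twist1 had 142 and 149, against a median of 386 (142 to 552). By its mean log2 value clone L was among the 3 lowest clones in each of these genes and the lowest in none. Snai1 and Snai2, at −0.26 ± 0.13 and −0.11 ± 0.11 (SE), were not called with both libraries, though Snai1 was lower without library B, at −0.49, and Snai3 was higher at 0.75 ± 0.13.

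Mesenchymal and matrix genes split. Of 17 tested members, 8 were lower (47.1%, against 24.4% of all genes) and 3 higher (17.6%, against 21.6%) on the library test. Without library B of clone L 5 were lower (29.4%, against 19.7% of all genes). Vim, the intermediate filament vimentin, had 11847 and 12091 normalised counts, against a median of 52466 (6443 to 77124). S100a4, a calcium-binding protein known from metastatic cells, had 4428 and 7766, against a median of 31937 (2407 to 61236), and the procollagen C-proteinase enhancer Pcolce had 183 and 163, against a median of 1407 (168 to 4677). Clone L was among the 3 lowest clones for each of these 3 genes. Tnc and Postn, matrix proteins of stroma and invasive fronts, went the other way. Tnc (tenascin C) had 1967 and 1781, against a median of 326 (14.2 to 1634), the highest mean of 23, and Postn (periostin) had 1151 and 1077, against a median of 2.82 (0 to 3664), the 2nd highest. The difference in Postn was 4.04 ± 0.10 (SE, adjusted p = 1.18e-25, limma on libraries). The fibroblast markers summed to 184 and 176 normalised counts in clone L, against 114 to 1842 in the other clones. Pdgfrb, Col3a1, Dcn, Lum, Thy1 and Dpt were at 0 reads in both libraries. In bulk RNA, fewer cells of a kind and less RNA per cell cannot be told apart.

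**Figure D3:**
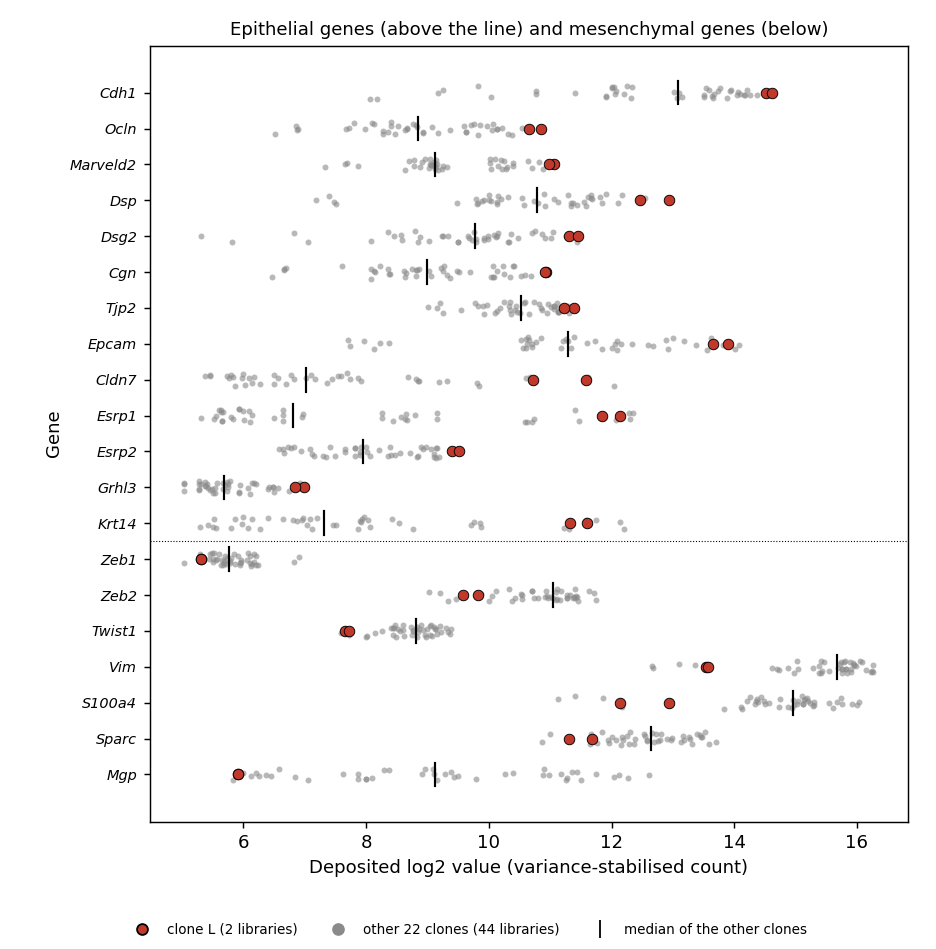
Deposited log2 values (x axis) of junction, keratin, EMT factor and mesenchymal genes, 1 row per gene, with clone L's 2 libraries in red, the 44 libraries of the other clones in grey and a bar at the median of the other clones. The dotted line parts epithelial genes (above) from EMT factor and mesenchymal genes (below). The red points sit in the right part of the grey range or beyond it for the junction genes and in its left part for Zeb1, Zeb2, Twist1 and Vim.

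Cells make cholesterol from acetyl-CoA through the mevalonate pathway, and SREBP factors switch on its genes and those of fatty acid synthesis when sterols run low. Of 24 tested cholesterol genes, 22 were higher in clone L on the library test (91.7%, against 21.6% of all genes). The lower genes were 0 (0%, against 24.4%), and the median difference was 0.92. The mean of the list was the 2nd highest of 23, after clone U. Idi1, the isomerase of isopentenyl diphosphate, had 3382 and 3818 normalised counts, against a median of 1284 (136 to 4486). Cyp51, which removes a methyl group from lanosterol, had 12724 and 14575, against a median of 3910 (415 to 13702). Srebf2, the SREBP gene that serves cholesterol synthesis, had 2370 and 3096, against a median of 1286 (197 to 2556). The mean of Srebf2 was the highest of 23, with library A inside the range of the other clones, and those of Idi1 and Cyp51 were the 2nd highest. Tm7sf2 and Ebp were not called.

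The mean of the fatty acid synthesis list was the highest of 23 in clone L. Here 13 of 16 members were higher (81.2%, against 21.6% of all genes) and 1 was lower (6.25%, against 24.4%). Fasn (fatty acid synthase) had 14777 and 14383 normalised counts, against a median of 8738 (4028 to 12655), and Elovl6, which lengthens fatty acids, had 8237 and 7860, against a median of 3903 (1212 to 7548). Fads2, a desaturase of polyunsaturated fatty acids, had 1934 and 2374, against a median of 719 (82.3 to 1891). For these 3 genes both libraries lay above all others, with differences of 0.82 ± 0.07, 1.04 ± 0.07 and 1.45 ± 0.08 (SE; adjusted p = 7.77e-12, 2.35e-13 and 8.14e-16, limma on libraries). Acaca, the first committed enzyme, had the highest clone mean at 2528 and 1797, against a median of 1304 (813 to 1782). Acss2, which makes acetyl-CoA from acetate, was the 1 lower member, at −0.35 ± 0.10 (SE), and was not called without library B, at −0.24.

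The start region of Hmgcs1, HMG-CoA synthase, holds the letters of a sterol regulatory element, TCACNCCAC, in capitals, at chr13:119690101-119690400, plus strand. Of 27025 genes with a window 1.44% hold a match, and of the 17 cholesterol genes with a window in the table it was found in 1. Hmgcs1 had 8792 and 7929 normalised counts in clone L, against a median of 3368 (388 to 9639).

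Hmgcs1: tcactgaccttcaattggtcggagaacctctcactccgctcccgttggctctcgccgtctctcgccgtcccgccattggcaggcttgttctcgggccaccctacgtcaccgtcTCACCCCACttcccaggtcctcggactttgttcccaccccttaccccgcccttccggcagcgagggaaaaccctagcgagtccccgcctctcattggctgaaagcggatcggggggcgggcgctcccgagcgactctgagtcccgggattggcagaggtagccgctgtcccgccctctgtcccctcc

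Proteases and their inhibitors diverged by gene. Serpine2 (chr1:79794197-79861180, minus strand), protease nexin-1, inhibits thrombin and plasminogen activators, and with Slpi, an inhibitor of leukocyte elastase, it is known from the study of these clones for its link to intravasation. Serpine2 had 15.9 and 22 normalised counts in clone L, against a median of 1580 (54.9 to 9030). Slpi had 21.6 and 31.8, against a median of 1714 (28.4 to 10949). Clone L was the lowest of 23 in both, beyond all other libraries for Serpine2 and overlapping clone J for Slpi. The differences were −4.34 ± 0.12 and −3.97 ± 0.17 (SE; adjusted p = 8.80e-25 and 9.98e-20, limma on libraries). In the tumors Serpine2 had 902 to 2052 and in the lung metastases 11662 to 19536, above both clone L libraries. The lung values also exceeded the highest clone. These specimens can hold host cells, whose part in the Serpine2 values was not tested.

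Serpinb5, the epithelial serpin maspin, was 1 of the higher inhibitors. It had 617 and 593 normalised counts, against a median of 30.0 (0.589 to 547), the highest mean of 23. Over the whole list of 21 inhibitors, 6 were higher (28.6%) and 8 lower (38.1%), against 21.6% and 24.4% of all genes. Without library A 5 were lower (23.8%, against 17.4% of all genes), so the counts are no result about the inhibitors as a group. Of 24 matrix proteases 10 were higher (41.7%, against 21.6% of all genes) and 7 lower (29.2%, against 24.4%). Without library B 6 were higher (25%, against 17.7% of all genes). Adam12, a membrane-anchored metalloprotease, had 3449 and 2900, against a median of 243 (4.31 to 2500), above all other libraries, with clone P next. Mmp3, the protease stromelysin 1, had 59 and 60.0, against a median of 2271 (81.2 to 12597), below all other libraries, again with clone P next. Lrp1, the receptor that clears such protease and inhibitor pairs, was the low gene described above.

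Cyclooxygenases make prostaglandin H2 from arachidonic acid, Ptges turns it into prostaglandin E2, and Ptger4 is a receptor for that product. Ptgs1, the constitutive cyclooxygenase, had 48.8 and 42.9 normalised counts, against a median of 539.5 (104 to 4701). Ptges had 9.08 and 8.57, against a median of 425 (11.1 to 2368), and Ptger4 had 3.4 and 2.45, against a median of 39.7 (10.2 to 119). Clone L had the lowest mean of 23 in all 3 genes, and for Ptgs1 and Ptger4 both libraries were below all others. Ptgs2, the inducible cyclooxygenase, lay at the other end, 2nd of 23, with 15268 and 16761, against a median of 4735 (782 to 28043). The differences were −2.89 ± 0.15 for Ptgs1 and 1.82 ± 0.09 for Ptgs2 (SE; adjusted p = 3.27e-17 and 1.61e-17, limma on libraries).

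The list of osteopontin, mineralization and metastasis genes, which includes these 4, had its lowest mean of 23 in clone L. Of 21 tested members, 13 were lower on the library test (61.9%, against 24.4% of all genes). The 5 higher members (23.8%) were near the 21.6% of all genes. The median difference was −0.43. Spp1 (osteopontin), a secreted bone matrix protein, had 2213 and 2428 normalised counts, against a median of 11763 (1652 to 48365), 3rd lowest. Gpnmb, a transmembrane glycoprotein of osteoblasts and melanocytes, had 27.2 and 17.1, against a median of 832 (24.6 to 11860), and Mgp (matrix Gla protein), an inhibitor of calcification, had 12.5 and 12.2, against a median of 495 (14.9 to 5169). Clone L was lowest in Gpnmb and Mgp, at levels near those of clone P for Gpnmb (24.6) and clone J for Mgp (14.9). Cd44, the hyaluronan receptor, and Has2, which makes hyaluronan, were higher, at 0.68 ± 0.10 and 0.86 ± 0.08 (SE; adjusted p = 1.37e-06 and 2.77e-11, limma on libraries).

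The YAP and TAZ coactivators bind TEAD factors and raise Ctgf, Cyr61 and other genes when Hippo kinases are inactive. Of 16 tested members of that list, 8 were higher on the library test (50%, against 21.6% of all genes). The lower members were 2 (12.5%, against 24.4% of all genes). Ctgf, connective tissue growth factor, had 8304 and 10726 normalised counts, against a median of 981 (266 to 8735). Cyr61, a secreted matricellular protein, had 10794 and 13614, against a median of 1588 (334 to 9855). Clone L had the highest mean in both; Ctgf overlapped clone P (8735), and Cyr61 was above all other libraries by a narrow margin. Ankrd1, another gene used to read out YAP, had 2152 and 2154, against a median of 2664 (1752 to 4643), and was lower, at −0.34 ± 0.07 on the log2 scale (SE; adjusted p = 3.62e-04, limma on libraries). The start region of Cyr61 (chr3:145649936-145650235, minus strand) holds 1 match to GGAATG, the letters TEAD factors bind, on the opposite strand, so that the capitals read CATTCC. Of 27025 genes with a window 16.6% hold a match, and 8 of the 11 listed genes with a window do.

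Cyr61: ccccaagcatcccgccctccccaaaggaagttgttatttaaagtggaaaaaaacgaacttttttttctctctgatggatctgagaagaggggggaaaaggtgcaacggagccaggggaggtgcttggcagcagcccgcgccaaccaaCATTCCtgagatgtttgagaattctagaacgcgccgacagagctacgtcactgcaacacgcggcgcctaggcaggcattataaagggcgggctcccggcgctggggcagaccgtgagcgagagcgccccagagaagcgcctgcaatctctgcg

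In the TGF-beta family, activin and its inhibitor were high, and a co-receptor and a Smad were low. Inhba, the activin A subunit, had 9466 and 10489 normalised counts, against a median of 1997 (137 to 8474), and Fst (follistatin), which binds activin, had 199 and 282, against a median of 17.9 (3.27 to 209.7). Both were the highest means of 23. Tgfbr3 (betaglycan), a co-receptor, had 7.94 and 14.7, against a median of 308 (12.1 to 2124), and Smad3, which carries the signal to the nucleus, had 1246 and 1088, against a median of 2948 (1279 to 6514), the lowest means of 23. Over 21 members of the TGF-beta list, 5 were higher (23.8%) and 7 lower (33.3%), near the 21.6% and 24.4% of all genes, so the counts say little about the list.

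Bmp7, a bone morphogenetic protein, had 149 and 208 normalised counts, against a median of 1087 (255 to 1918), below all other libraries. Id2, a helix-loop-helix inhibitor that BMP signals raise, had 28.4 and 51.4, against a median of 498 (29.6 to 2302), and Id1 had 99.8 and 159, against a median of 256 (66.6 to 1487). Of 16 tested BMP and Id genes, 8 were lower (50%, against 24.4% of all genes) and 3 higher (18.8%, near the 21.6% of all genes). The mean of the list was the lowest of 23. The difference in Id2 was −2.61 ± 0.15 (SE, adjusted p = 5.58e-16, limma on libraries).

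Most tested genes of the FGF pathway list, which holds ligands, receptors and feedback genes, were low. Fgfbp1, which releases FGFs from the matrix, had 3471 and 4213 normalised counts, against a median of 316 (7.02 to 3617), the highest mean of 23, and was 1 of the 3 higher members. Spry4, a feedback inhibitor of FGF receptors, had 120.2 and 142, against a median of 295 (94.6 to 535), and Dusp6, a phosphatase induced by ERK signalling, had 479 and 636, against a median of 2084 (413 to 3664). Both lay among the 3 lowest clones. On the library test 8 of the 12 tested members were lower (66.7%, against 24.4% of all genes). The 3 higher members (25%) were near the 21.6% of all genes. Among 26 Wnt and Notch genes 11 were higher (42.3%, against 21.6% of all genes) and 6 lower (23.1%, near the 24.4% of all genes). Wnt7a had 1353 and 1684, against a median of 617 (6.06 to 1502), and the Notch ligand Jag1 had 1800 and 1928, against a median of 489 (46.7 to 3801).

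**Figure D4:**
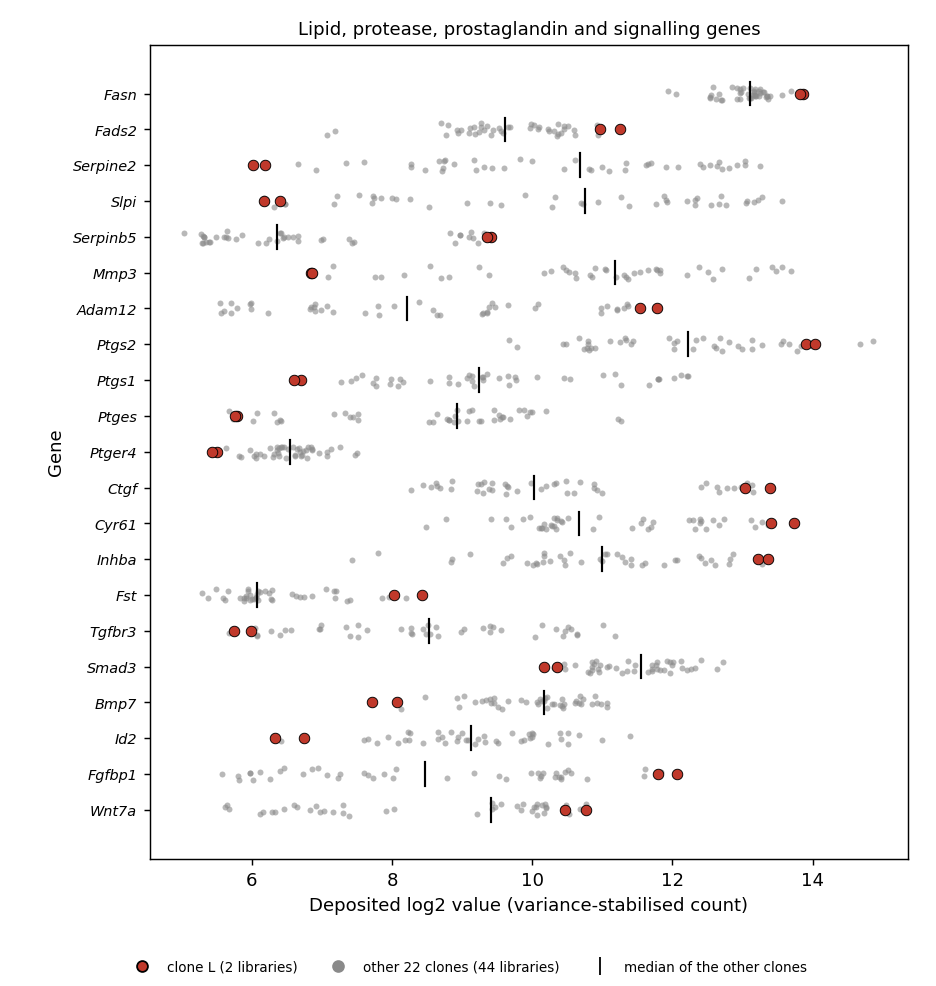
Deposited log2 values (x axis) of lipid, protease, prostaglandin and signalling genes, 1 row per gene, with the 2 libraries of clone L in red, the 44 libraries of the other clones in grey and a bar at the median of the other clones. The red points lie at the left end for Serpine2, Mmp3, Ptgs1 and Bmp7 and at the right end for Fasn, Adam12 and Cyr61.

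Neutrophil chemokines bind Cxcr2 and draw neutrophils, and 4T1 tumors are known for the neutrophils they mobilise. The list of chemokines and colony-stimulating factors also holds the receptor gene Il17ra and the interleukin gene Il23a. Of its 10 tested genes, 9 were higher in clone L on the library test (90%, against 21.6% of all genes). The lower genes were 0 (0%, against 24.4%). The list mean was 3rd of 23, with clone G far above at the top. The median difference of the list was 0.81 on the log2 scale. Its median of library A minus library B was −0.27, against 0 over all tested genes, so the libraries did not hold these genes equally high. Cxcl1 had 1403 and 2927 normalised counts, against a median of 209.7 (46.5 to 16206), and Cxcl5 had 3246 and 4661, against a median of 297 (91.9 to 34278). Csf3 (G-CSF), which drives neutrophil production, had 845 and 1142, against a median of 317 (129.9 to 4918), 4th among clones. Clone L exceeded the median clone severalfold in Cxcl1 and Cxcl5 and stayed below clone G. The neutrophil markers summed to 14.7 and 12.2 normalised counts in clone L, against 0 to 20.4 in the other clones, with Elane, Mpo and Retnlg at 0 reads. Cxcr2, the chemokine receptor and the only one of these markers that was tested, had 11.3 and 12.2, against a median of 6.21 (0.48 to 10.9). Its mean was the highest of 23, though library A lay inside the range of the other libraries, and it was called higher, at 0.26 ± 0.11 (SE, adjusted p = 0.048, limma on libraries). It was not called without either clone L library, at 0.28 without A and 0.24 without B, and its part in the chemokine values was not tested. Tnf, the cytokine tumor necrosis factor, was the highest of 23, with 57.9 and 60.0, against a median of 3.7 (0 to 35), both libraries above all others. Il1a had 3046 and 2573, against a median of 89.8 (11.7 to 24418), 3rd among clones, whereas Icam1, an adhesion molecule that TNF can induce, had 3.4 and 9.8, against a median of 26.6 (2.89 to 355).

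MHC class I molecules show peptides cut by the immunoproteasome to T cells. Of 15 tested genes, 10 were lower (66.7%, against 24.4% of all genes) and 1 higher (6.67%, against 21.6%). The median difference was −0.49. The immunoproteasome subunit gene Psmb8 had 143 and 160.4 normalised counts, against a median of 626 (37.1 to 2461), and Psmb9 had 31.8 and 34.3, against a median of 324 (12.9 to 1964), each 3rd lowest of 23. B2m, the invariant light chain, was not called, at −0.21 ± 0.15 (SE), and the reads of near-identical H2 genes cannot be told apart. Interferon-stimulated genes were split and near the middle: of 30, 14 were lower (46.7%, against 24.4% of all genes) and 4 higher (13.3%, against 21.6%). Clone G had the highest mean of the list, and without it 5 were lower (16.7%), which is below the 24.3% of all genes in that fit. Without library A of clone L 9 were lower (30%, against 17.4%). Rsad2, an antiviral enzyme, had 307 and 333, against a median of 9.45 (1.5 to 2052), the 2nd highest.

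NRF2 targets protect against oxidants. Of 25 tested NRF2, glutathione and thioredoxin genes, 12 were lower (48%, against 24.4% of all genes) and 1 was higher (4%, against 21.6%). Nfe2l2, which encodes NRF2, had 1280 and 1405 normalised counts, against a median of 2625 (1313 to 4426), and its target Nqo1 had 55.6 and 42.9, against a median of 218 (5.45 to 873). Txnip, which binds thioredoxin and responds to glucose, had 64.7 and 87, against a median of 556 (55.2 to 3107). Clone L was the 2nd lowest in each of these 3 genes. Hmox1 and Gclc, other NRF2 targets, were not called, at 0.09 ± 0.12 and 0.23 ± 0.10 (SE).

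**Figure D5:**
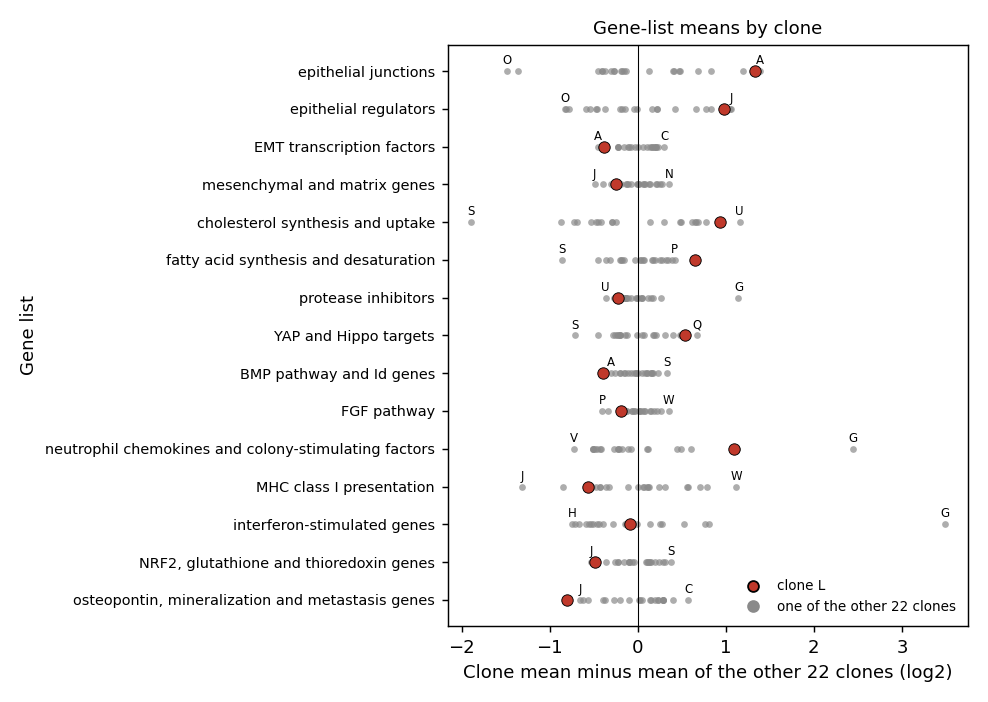
Mean log2 value of each gene list in a clone minus its mean over the other 22 clones (x axis, log2), with clone L in red and each other clone in grey; letters name the highest and the lowest other clone. Clone L lies to the right of all other clones for fatty acid synthesis and to the left of all of them for the osteopontin list and the BMP and Id list.

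Clone P shared several of these levels. Against clone P, the difference in Ctgf was 0.11 ± 0.11, in Mmp3 −0.26 ± 0.19 and in Gpnmb −0.04 ± 0.14 (SE). None of these 3 was called (adjusted p = 0.543, 0.379 and 0.886, limma on libraries), which does not show equal levels. For Mmp3 both clone L libraries lay below those of clone P. Tnc, Ocln and Serpine2 were called against clone P, at 2.33 ± 0.12, 0.97 ± 0.16 and −2.85 ± 0.16 (SE; adjusted p = 1.62e-15, 2.41e-05 and 5.27e-15, limma on libraries). Clone P had 323 normalised counts of Tnc, 819.5 of Ocln and 439 of Serpine2. In Ocln and Serpine2 both clone L libraries lay outside all others, clone P's included, so nothing is read from those calls.

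Tumors and lung metastases, which the labels trace to 4T1 cells without naming a clone, were looked up for the genes that lay outside the clones. Nts had 18.7 to 28.9 normalised counts over the 4 tumor libraries and 0 to 6.6 over the 4 lung libraries, below clone L in all 8. Cdh1 had 6160 to 9669 in tumors and 1288 to 2612 in lung, and Lrp1 had 4795 to 5601 and 5632 to 6870, so that the specimens lay below clone L in Cdh1 and above it in Lrp1. Specimens can also hold host cells. The macrophage markers summed to 436 to 544 in tumors, inside the 65.2 to 558 of the other clones, and to 463 to 1064 in lung. The fibroblast markers summed to 685 to 867 in tumors and 1545 to 4828 in lung, against 114 to 1842 in the other clones. The part of host cells in the values of these genes was not tested.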

How the data were processed

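RNA was purified, DNase-treated and amplified to cDNA, which was sheared and sequenced, per the labels' protocols. The genome build was mm10 and the tools included DESeq, HTSeq and Bowtie2, per the submitters' processing notes; the versions and the strand setting were not given in the sources used here, so reads of overlapping, antisense or near-identical genes cannot be told apart. The authors deposited 1 table of log2 values of 23481 genes in 54 libraries. Their curve, on which no reads sits at 5.03, was inverted to normalised counts, and 100% of values came out within 0.01 of whole reads. In 27 rows the symbol had become a date, and these were not named.

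Genes with at least 10 normalised counts in at least 2 clone libraries were tested, 13637 in all. Differences are on the deposited scale, which is compressed for low genes. limma 3.58.1 with a variance trend (two-sided, Benjamini-Hochberg) ran on 1 value per clone and on 46 libraries with a coefficient per clone; both were tested on simulated data. The tests used the log2 values as deposited, and no count test was run on the recovered reads.

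Named genes were the 12 per direction with the widest gap beyond all other libraries, among those with at least 50 normalised counts in clone L or, for low genes, in the median other clone, the gene that passed the test on clones, and members of 49 gene lists. Members and lists were chosen with earlier results of these data known. Alternatives covered the scale, the filter, centring, each clone L library, clones E and T, clone G, the variance prior and blocks. Gene sequences are from RefSeq (GRCm38.p6); coordinates are from GENCODE M21.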

Additional observations from a re-analysis of the deposited data

How the results depend on the processing

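The test on clones depended on the settings: its count of 1 gene became 0 on the scale log2(recovered normalised count + 1), 36 (35 higher, 1 lower) with no filter on low values, 0 against only the 20 other clones labelled non-intravasating, 2 with all 46 libraries and the clone as a block, and 0 to 1 when either clone L library was left out, Nts being lost without library B. The library test gave 6280 calls, 602 with a log2 difference of at least 1, 4554 to 5094 when either clone L library was left out, and 5879 to 6281 under the other scale, filters, centring and clone sets. The 222 genes outside all other libraries became 602 to 852 with 1 clone L library, since 1 library is easier to place outside than 2. Leaving out either clone L library gave 5 to 8 lower EMT factors (8 with both), 5 to 7 lower mesenchymal genes (8 with both), 5 to 6 lower protease inhibitors (8 with both), 6 to 10 higher matrix proteases (10 with both) and 9 to 11 lower interferon genes (14 with both); the interferon count was also 8 on the log2 count scale and 5 without clone G, and 3 mammary and hormone receptor genes (of 5) were lower with a filter of 50 normalised counts. For single genes named in the text no alternative turned the direction; Tjp1 also lost its call with no filter (0.18) and against the 20 non-intravasating clones (0.17), Cxcr2 on the log2 count scale (1.01), with no filter (0.26) and against those 20 clones (0.27), and Ebp and Gclc gained one with centring (0.26 and 0.26). With the library letter as a replicate block there were 6538 calls (3082 higher, 3456 lower), and the block ended no call named in the text; the letters were not shown to pair the libraries, since only 113 of 253 pairs of clones had A minus B correlations over 0.1 (−0.502 to 0.637 over all pairs, −0.502 to 0.358 for clone L). The causes of the other changes were not tested. Depth limits low genes: 1 read was worth over 1 normalised count in clone L, and with 1 clone the spread of clone L itself is unknown.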

Other observations

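Cell-matrix genes in clone L were mixed. Of 19 tested laminin, basement membrane and hemidesmosome genes, 10 were higher (52.6%, against 21.6% of all genes) and 2 lower (10.5%, against 24.4%) on the library test, and the laminin-332 chain Lama3, which anchors basal epithelium, had 1429 and 1199 normalised counts, against a median of 231 (2.85 to 2737) in the other clones. Itgb6, the epithelial integrin chain that activates latent TGF-beta, had 597 and 562, against a median of 57 (1.15 to 662), 2nd of 23. Itgb3, the beta chain of the vitronectin receptor, had 40.8 and 29.4, against a median of 339 (57 to 1660), below all other libraries. Over 21 integrin and adhesion genes 8 were higher (38.1%, against 21.6% of all genes) and 9 lower (42.9%, against 24.4%). Col6a1, a collagen VI chain, had 6.81 and 9.8, against a median of 535 (9.28 to 1380), the lowest mean. Among 12 collagens 5 were lower (41.7%, against 24.4% of all genes) and 2 higher (16.7%, against 21.6%). The difference was −2.17 ± 0.10 for Itgb3 and −3.01 ± 0.10 for Col6a1 (SE; adjusted p = 1.18e-18 and 2.34e-22, limma on libraries).

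Several developmental regulators were low. Gata3, a master factor of the mammary luminal lineage, had 749 and 838 normalised counts, against a median of 1914 (822 to 3301), the lowest mean of 23. Of 11 tested mammary and hormone receptor genes 5 were lower (45.5%, against 24.4% of all genes) and 1 higher (9.09%, against 21.6%). Hoxa5 had 843 and 694, against a median of 1668 (849.5 to 2609), and Meis1, a cofactor of Hox proteins, had 98.7 and 95.5, against a median of 234 (101 to 441); both means were the lowest of 23. Jun, a subunit of AP-1, had 402 and 501, against a median of 1113 (544 to 1897), below all other libraries. Over 20 immediate early genes 8 were higher (40%, against 21.6% of all genes) and 8 lower (40%, against 24.4%). Lin28b, an RNA-binding protein of embryonic cells, had 48.8 and 55.1, against a median of 1.69 (0 to 34.7), above all other libraries. Vegfc, a lymphatic growth factor, had 583 and 614, against a median of 190.5 (15.6 to 456), also above all others. L1cam, a neural adhesion molecule also found in carcinomas, had 304 and 336, against a median of 58.9 (6.87 to 314), the highest mean of 23, with library A inside the range of clone A.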
